A study of Mus musculus with 12 samples.

Results

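The genes described here belong to the oxygen response that is run by hypoxia-inducible factor (HIF). They were chosen by symbol as Ankrd37 and Car9 together with Hif1a, Vegfa, Egln1, Egln3, Ndrg1, Adm, Bnip3 and P4ha1. Of these 10 genes 7 had a row among the 15154 rows of the expression table, and all 7 passed the detection filter and were tested among 8107 genes. Hif1a, Bnip3 and P4ha1 were not analysed here. RNA of colonocytes (absorptive epithelium of the large bowel) of the C57BL/6 strain was hybridised to Illumina bead arrays. Germfree mice (GF) lived in isolators without microbes and gave 6 arrays, and conventionally raised mice (CONV) gave the other 6. The labels name 2 batches, each with 3 GF arrays (replicates 1 to 3 in batch 1, 4 to 6 in batch 2) and 3 CONV arrays of the same numbers. The labels call the samples biological replicates, and age, sex and any pooling of mice are not stated there.

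HIF is a transcription factor made of an oxygen-labile alpha subunit, such as HIF-1 alpha from Hif1a, and a stable beta subunit. While oxygen is present, prolyl hydroxylases of the EGLN family mark the alpha subunit, the von Hippel-Lindau protein binds the mark, and the subunit is degraded. When oxygen is scarce, the alpha subunit escapes this step and HIF switches on genes for pH control, glucose use, vessel growth, iron uptake and matrix. The colonic epithelium lies between a well supplied blood bed and a lumen almost without oxygen, and is known as a tissue with low oxygen at its surface. HIF binds a core of 5 letters, ACGTG or GCGTG, on either strand.

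The 250 bases before an annotated start of Ankrd37 and of Car9 are printed here because these were the members that passed the test, in opposite directions. The sequences are from RefSeq (build GRCm38.p6), read 5′ to 3′ along the gene's strand, and capitals mark each match to ACGTG or GCGTG or to its reverse complement.
Ankrd37 (chr8:45999851-46000100, minus strand): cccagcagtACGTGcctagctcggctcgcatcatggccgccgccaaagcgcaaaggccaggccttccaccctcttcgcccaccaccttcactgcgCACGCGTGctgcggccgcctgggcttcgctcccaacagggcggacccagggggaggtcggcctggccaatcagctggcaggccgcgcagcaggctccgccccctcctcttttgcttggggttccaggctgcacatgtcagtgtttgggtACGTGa
Car9 (chr4:43506776-43507025, plus strand): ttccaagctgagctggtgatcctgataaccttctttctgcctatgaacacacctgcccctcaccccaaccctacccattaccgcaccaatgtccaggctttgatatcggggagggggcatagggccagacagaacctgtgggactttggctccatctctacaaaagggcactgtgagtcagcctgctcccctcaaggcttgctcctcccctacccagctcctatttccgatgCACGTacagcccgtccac

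The Ankrd37 window held 4 matches, counted with overlaps, of which the nearest began 6 bases before the start. That start is not the outermost one, as the window lies inside the annotated bounds of Ankrd37 itself (chr8:45996908-46000414). The Car9 window held 1 match, on the reverse strand, beginning 18 bases before the start. The window lies inside the annotated bounds of Arhgef39. Of 32536 windows of this length in the mouse promoter table, 38.8% held at least 1 match, so a match by itself is common. Windows were found for 9 of the 10 genes by symbol, and Ndrg1 is named only. The windows of Egln1 and Adm held 2 matches each, and that of Egln3 held 1. Vegfa had a window with 0 directly before its outermost start, and another with 2 inside its own annotated bounds. These are matches of letters, not sites shown to be bound.

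The 7 genes did not change in one direction. Relative to CONV colonocytes, GF colonocytes had 1 member higher (Ankrd37) and 1 lower (Car9), and 5 did not pass the test. The test was limma's linear model with batch and group over all 12 arrays, with Benjamini-Hochberg adjustment over 8107 genes and a threshold of 0.05. The same test called 22.7% of all genes, 10.8% higher and 11.8% lower in GF, so 2 of 7 is close to the background. The median of the members' differences was 0.33 on the log2 scale against 0.0072 over all genes tested. All values below are log2 of background-corrected, quantile-normalized intensity, on which dim genes show smaller differences than their transcripts, and all differences are GF minus CONV with their standard error (SE).

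**Figure D1:**
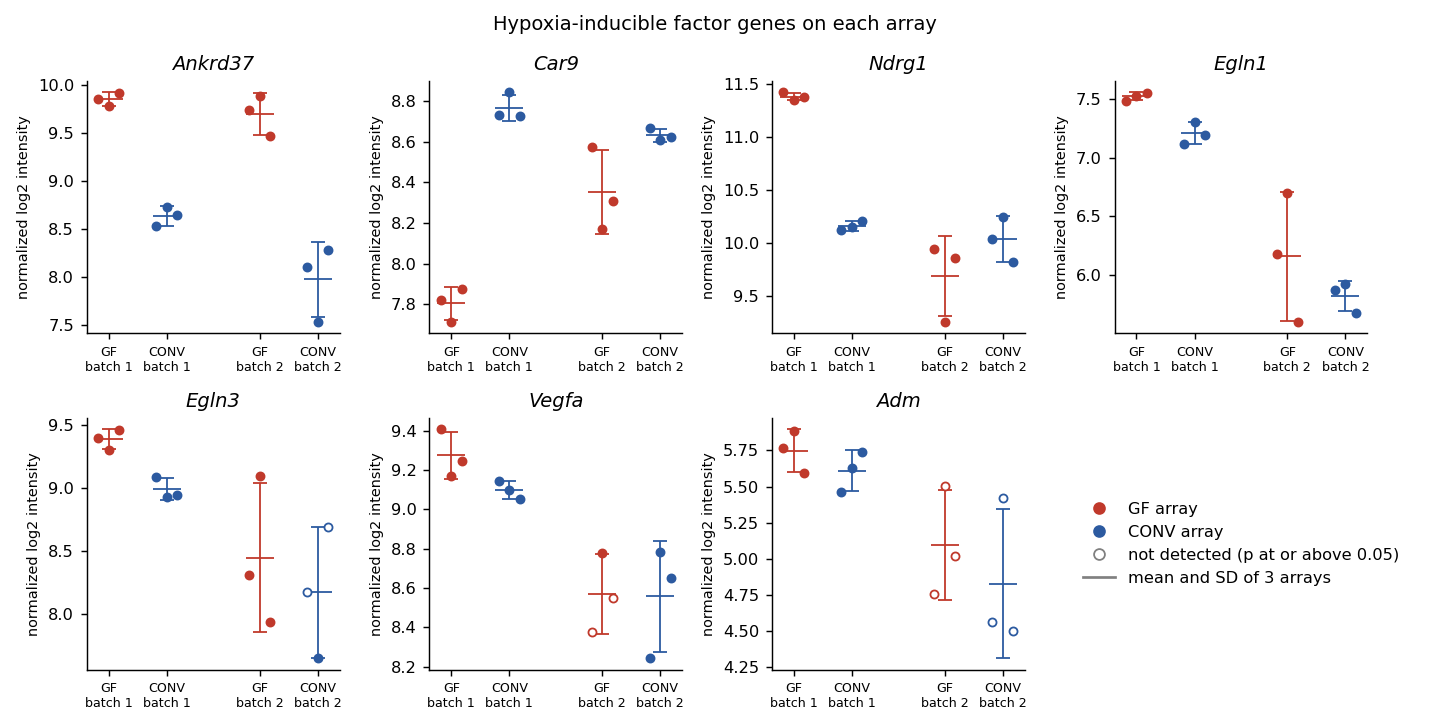
Normalized log2 intensity (vertical axis) of the 7 genes on each array, GF left of CONV within each batch. Points are arrays, open points arrays where the gene was not detected, and bars the mean and SD of 3 arrays. Ankrd37 is higher and Car9 lower on every GF array than on the CONV arrays of the same batch, while Ndrg1 is higher in GF of batch 1 only.

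Ankrd37, which codes for a small ankyrin repeat protein and is a well known transcriptional target of HIF-1, was higher in GF. In batch 1 it measured 9.86, 9.78 and 9.92 on the GF arrays, against 8.53, 8.73 and 8.64 on the CONV arrays. In batch 2 it measured 9.74, 9.89 and 9.46 on the GF arrays, against 8.11, 7.53 and 8.27 on the CONV arrays. Every GF array was thus above every CONV array, across batches as well, and the gene was detected on all 12 arrays. Of all genes tested 6.61% had GF above CONV without overlap in both batches. Deposited intensities, before any correction here, showed the same order, with 877 to 1142 in GF and 345 to 473 in CONV. The difference was 1.47 ± 0.14 (SE, n = 6 per group), or 2.78-fold (limma adjusted p = 2.67e-05). It was 1.22 ± 0.07 within batch 1 (adjusted p = 4.02e-06) and 1.73 ± 0.22 within batch 2 (adjusted p = 0.0219). The test of a difference between these effects was not passed (0.51 ± 0.24, adjusted p = 0.239). Without the lowest array, CONV replicate 5, the difference was 1.35 (adjusted p = 9.93e-06).

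Car9 codes for carbonic anhydrase IX, a membrane enzyme with its active site outside the cell that turns carbon dioxide into bicarbonate and protons, and is among the HIF targets most used as a marker of hypoxia. It was lower in GF, opposite to Ankrd37. In batch 1 it measured 7.82, 7.72 and 7.87 on the GF arrays, against 8.73, 8.84 and 8.72 on the CONV arrays. Batch 2 gave 8.58, 8.17 and 8.31 on the GF arrays, against 8.67, 8.61 and 8.62 on the CONV arrays. The groups did not overlap in either batch, but in batch 2 the highest GF array came close to the lowest CONV array. Of all genes tested 7.03% had GF below CONV without overlap in both batches. The difference was -0.62 ± 0.12 (n = 6 per group, adjusted p = 0.00371), a GF level 0.650 times that of CONV.

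The fall of Car9 differed between the batches. It was -0.96 ± 0.07 in batch 1 (adjusted p = 1.03e-05). Batch 2 gave -0.28 ± 0.14, which did not pass (adjusted p = 0.321). The effect in batch 2 minus that in batch 1 was 0.68 ± 0.15 (limma interaction, adjusted p = 0.0167). With the 3 arrays of each group of batch 1 averaged into 1 sample, the call of Car9 was lost (-0.45, adjusted p = 0.150). Car9 and Ndrg1 were the 2 members whose effects differed between batches, against 8.59% of all genes tested.

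Ndrg1, a cytoplasmic stress and differentiation gene induced by low oxygen, was the member that differed most between batches. In batch 1 it measured 11.42, 11.35 and 11.38 in GF, against 10.12, 10.15 and 10.21 in CONV. The values of batch 2 were 9.94, 9.26 and 9.86 in GF, against 10.03, 10.25 and 9.81 in CONV. GF was clearly above CONV in batch 1, whereas in batch 2 the groups overlapped and the GF mean was the lower one. The difference was 1.22 ± 0.06 in batch 1 (adjusted p = 1.25e-06). Batch 2 gave -0.35 ± 0.22, which did not pass (adjusted p = 0.428). These effects differed by -1.57 ± 0.23 (limma interaction, adjusted p = 0.00290). Over both batches Ndrg1 was at 0.44 ± 0.25 and did not pass (adjusted p = 0.241). This value moved with the setting. It was 1.06 with array weights, which passed (adjusted p = 2.99e-05), and 0.045 with batch 1 reduced to 1 mean array per group (adjusted p = 0.952). Array weights called 4286 of the 8107 genes tested, against 1839 in the main fit. Without both replicate 5 arrays, an alternative chosen after the data were seen, it was 0.72 (adjusted p = 0.0237). The summed levels of 2 cell marker lists were also higher in GF in batch 1 and not in batch 2. The summed level of the 5 goblet genes in the table (linear normalized intensity) was 48282 to 51279 in GF against 26572 to 28398 in CONV in batch 1, and 60905 to 72144 in GF against 65613 to 70391 in CONV in batch 2. The batch difference passed for 2 of these 5, and for 8.59% of all genes tested. Over 12 arrays Zg16, Spdef and Tff3 rose, Clca1 fell and Agr2 did not pass, and Clca1 was at -0.79 and -0.34 and Agr2 at -0.11 and -0.84 in batches 1 and 2, unlike Ndrg1. The T lymphocyte genes in the table summed to 295 to 318 in GF against 208 to 234 in CONV in batch 1, and to 323 to 417 in GF against 421 to 548 in CONV in batch 2. Both tested genes of that list, Cd3g and Lck, passed the test of a batch difference, which 8.59% of all genes passed. Cd8a was not detected on any array. The part of these cells in the result was not tested, and in whole-cell RNA fewer cells of a type and less RNA per cell cannot be told apart.

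Egln1 and Egln3 code for prolyl hydroxylases that mark HIF for decay, and both are themselves HIF targets, so that they form a feedback loop. Egln1 (PHD2), regarded as the main oxygen sensor, measured 7.49, 7.53 and 7.55 in GF against 7.12, 7.31 and 7.19 in CONV in batch 1. Those of batch 2 were 6.18, 6.70 and 5.601 in GF against 5.87, 5.92 and 5.67 in CONV. The groups were apart in batch 1 and overlapped in batch 2. Egln1 was dim in batch 2, with deposited intensities of 211.5 to 262.0 against an inferred background of 182 to 183, though detected on every array. The difference was 0.33 ± 0.14 over 12 arrays (adjusted p = 0.123). Batch 1 alone gave 0.32, which passed (adjusted p = 0.00437), and batch 2 alone 0.34, which did not (adjusted p = 0.531). Single arrays carried much of this value, which was 0.45 and called without GF replicate 6 (adjusted p = 0.0122) and 0.21 without GF replicate 5 (adjusted p = 0.178). Array weights called Egln1 as well (0.28, adjusted p = 0.00400), a setting that called 4286 of the 8107 genes tested.

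Egln3 (PHD3), the most strongly oxygen-regulated of the family in many cells, measured 9.40, 9.30 and 9.46 in GF against 9.09, 8.93 and 8.95 in CONV in batch 1. Batch 2 had 8.31, 9.09 and 7.93 in GF against 8.17, 7.65 and 8.69 in CONV. GF was above CONV in batch 1 and the groups overlapped in batch 2. Egln3 was at 0.34 ± 0.19 over 12 arrays (adjusted p = 0.240). It passed in batch 1 at 0.40 (adjusted p = 0.00193) and was at 0.28 in batch 2 (adjusted p = 0.724). It was 0.20 without GF replicate 5 (adjusted p = 0.416) and 0.12 without both replicate 5 arrays (adjusted p = 0.6255). Array weights called it (0.41, adjusted p = 0.00190), as they did 4286 of the 8107 genes tested. The rows of Egln3, Egln1 and Car9, and in batch 2 that of Vegfa, carry detection p-values between the steps of a single probe, so they appear to combine several probes by a rule that is not stated. Egln3 was counted as detected on 1 of 3 CONV arrays of batch 2, although its deposited intensities there were 361 to 576.

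Vegfa codes for the vascular endothelial growth factor A, through which epithelium draws vessels. It measured 9.41, 9.17 and 9.25 in GF against 9.14, 9.10 and 9.05 in CONV in batch 1. On batch 2 arrays it was at 8.38, 8.78 and 8.55 in GF against 8.24, 8.79 and 8.65 in CONV. Vegfa was counted as detected there on 1 GF array and 3 CONV arrays. The groups lay just apart in batch 1 and overlapped in batch 2, and the difference of 0.09 ± 0.10 did not pass (adjusted p = 0.554). Leaving out single arrays gave 0.033 (CONV replicate 4) to 0.15 (CONV replicate 5). Array weights called Vegfa (0.20, adjusted p = 0.0248), as they did 4286 of the 8107 genes tested. Within batch 1 it was at 0.18 (adjusted p = 0.0779), and it passed there with no background correction, with normexp without controls and with 75th percentile scaling (0.15 to 0.21, adjusted p = 0.0445 to 0.0494).

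Adm codes for adrenomedullin, a peptide that widens vessels and is induced by low oxygen. It was dim, with 5.77, 5.89 and 5.59 in GF against 5.46, 5.63 and 5.74 in CONV in batch 1, so that the groups overlapped. In batch 2 it was not above background on any array, which leaves no fold there. Within batch 1 Adm was at 0.14 ± 0.10 and did not pass (adjusted p = 0.273). It is counted as not passed over 12 arrays, where its batch 2 values are background.

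**Figure D2:**
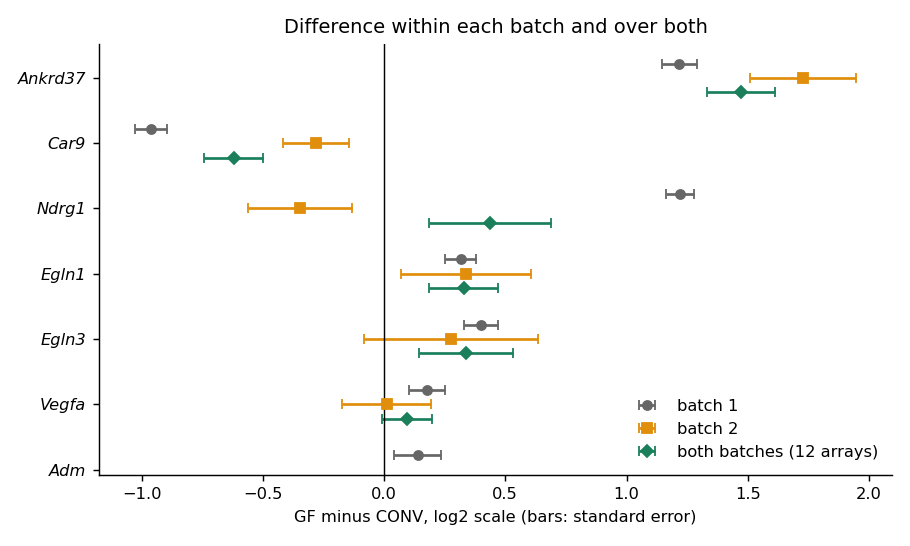
GF minus CONV difference on the log2 scale (horizontal axis) of each gene in batch 1, in batch 2 and over both batches, with standard errors as bars. Ankrd37 lies right of 0 and Car9 left of 0 in both batches, and Ndrg1 lies at 1.22 in batch 1 and at -0.35 in batch 2. Adm is drawn for batch 1 alone.

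Within batch 1 alone 4 members rose (Ankrd37, Ndrg1, Egln1 and Egln3), 1 fell (Car9) and 2 did not pass, where 46.9% of all genes were called, 23.3% higher and 23.6% lower in GF. Within batch 2 alone Ankrd37 rose and 6 members did not pass, where 2.44% of all genes were called, 0.987% higher and 1.46% lower in GF. Groups did not overlap for 6 of 7 members in batch 1, as for 56.5% of all genes, and for 2 of 7 in batch 2, as for 26.2%. The SD of Ndrg1 over 3 arrays was 0.04 in GF and 0.05 in CONV of batch 1, against 0.37 and 0.22 in batch 2. P-values measure only the spread between these samples, since no label names the mice.

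The genes whose levels followed Ankrd37 most closely were Ap4s1, Ubxn6, Prr15, Ufc1 and Pgap3. Their Pearson r was 0.968 to 0.978 over the 12 arrays with each batch's mean removed, and 0.602 to 0.897 with the group means within batches removed as well. All of them rose, by 0.43 (Pgap3) to 1.07 (Prr15). Those that followed Car9 most closely were Plk1, Ctc1, Oip5, Mtch2 and Aurka, at r 0.968 to 0.974, and 0.566 to 0.716 with the group means removed too. All of them fell, by 0.48 (Ctc1) to 0.90 (Oip5) on the log2 scale. For Plk1, Oip5, Mtch2 and Aurka the effect differed between batches, as it did for Car9, with -1.18 in batch 1 and -0.31 in batch 2 for Plk1 and -1.01 and -0.17 for Mtch2. The genes were picked for this likeness from 8107 on the same arrays, so r is a description without a test. Their shared direction and batch difference follow from that choice and are no separate observation.

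Calls among the genes that sense oxygen and carry HIF went in both directions. Of 19 genes 16 were in the table and 13 were tested, of which 3 rose, 2 fell and 8 did not pass, with a median of 0.042, where 22.7% of all genes were called. Hsp90aa1, a chaperone that holds the HIF alpha subunit, fell by 0.59 ± 0.08 (adjusted p = 0.000312; -0.48 in batch 1 and -0.70 in batch 2), detected on 4 GF and 4 CONV arrays. Elob, elongin B of the ubiquitin ligase that acts with the von Hippel-Lindau protein, fell by 0.42 ± 0.06 (adjusted p = 0.000612; -0.39 and -0.45). Cited2, which competes with HIF for the coactivators CBP and p300, rose by 0.52 ± 0.10 (adjusted p = 0.00410; 0.45 and 0.60). Vhl, the von Hippel-Lindau gene itself, rose by 0.39 ± 0.11 (adjusted p = 0.0277), a call lost without GF replicate 1, 3 or 6 or CONV replicate 2, 3 or 6 (adjusted p = 0.0518 to 0.0649). Among bright genes that did not pass, Hsp90ab1 was at -0.20 ± 0.09 and Rbx1, the ring finger subunit of that ligase, at -0.11 ± 0.08.

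**Figure D3:**
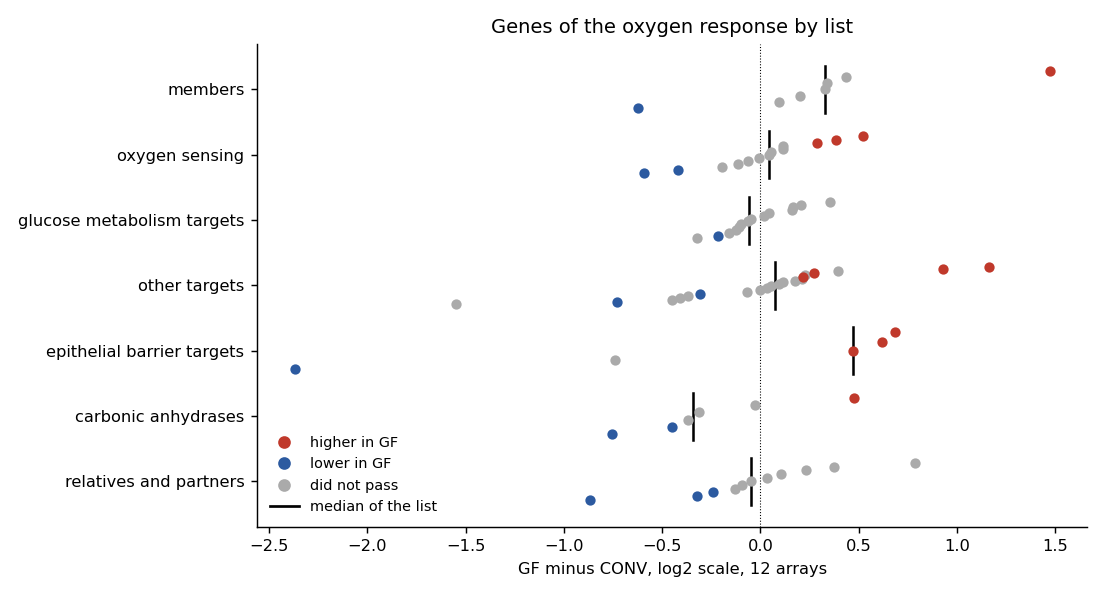
GF minus CONV difference over 12 arrays on the log2 scale (horizontal axis) of each tested gene, by list, coloured by whether it passed at an adjusted p of 0.05, with the median of the list as a bar. The medians run from -0.34 for the carbonic anhydrases to 0.47 for the barrier targets, and the glucose metabolism targets have a median of -0.056.

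HIF targets of glucose metabolism had 1 call. Of 14 tested of 23 genes 0 rose and 1 fell by limma (22.7% of all genes were called), with a median of -0.056. At an unadjusted p below 0.05, 2 were higher and 2 lower in GF. Gapdh, of glycolysis, was the gene that fell, by 0.22 ± 0.07 (adjusted p = 0.0342), and 9 of the 12 arrays, left out one at a time, took this call away (adjusted p = 0.0537 to 0.0782; GF replicates 1 to 4, CONV replicates 1, 2, 3, 5 and 6). Ldha, which makes lactate, was at -0.10 ± 0.09 over 12 arrays, with -0.35 in batch 1 and 0.15 in batch 2, and these effects differed (adjusted p = 0.0171). Tpi1, a glycolytic isomerase, was at -0.12 ± 0.08 (adjusted p = 0.311). Within batch 1 alone 3 of the 14 rose and 5 fell, where 23.3% of all genes were called higher and 23.6% lower in GF.

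Of 40 other HIF targets 20 were tested, of which 4 rose, 2 fell and 14 did not pass (median 0.074), near the 22.7% of all genes called. Edn1, the vessel-constricting peptide endothelin 1, rose by 1.16 ± 0.23 (adjusted p = 0.00385; 1.73 and 0.59), the largest difference of those called in this list. With batch 1 reduced to 1 mean array per group Edn1 was at 0.88 and not called (adjusted p = 0.153). That alternative also ended the calls of Cited2, Vhl, Gapdh, Mif, Kdm4b, Tff3, Slc6a8, Slc40a1, Car4, Car13, Car11, Bnip1 and Vegfd, and of Ufc1 and all 5 genes like Car9. Tfrc, the transferrin receptor that takes up iron, rose by 0.93 ± 0.12 (adjusted p = 0.000330; 0.95 and 0.90), with GF above CONV on every array of each batch. Kdm4b, a histone demethylase, rose by 0.27 ± 0.06 (adjusted p = 0.0104), with its row detected on 4 GF and 4 CONV arrays. Mif, a cytokine, fell by 0.31 ± 0.06 (adjusted p = 0.00344). Errfi1, a feedback inhibitor of the EGF receptor, did not pass at 0.40 ± 0.19, but was called without GF replicate 5 (0.54, adjusted p = 0.0279). Its effect differed between batches (0.90 and -0.10, adjusted p = 0.0361). Wsb1 was at 0.04 ± 0.08.

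HIF targets known for barrier function in gut epithelium numbered 15, of which 5 were tested: 3 rose, 1 fell and 1 did not pass (22.7% of all genes were called). Tff3, the goblet cell trefoil peptide, rose by 0.68 ± 0.16 (adjusted p = 0.00892; 1.05 and 0.32). It is itself among the goblet genes given above, of which Clca1 fell and Agr2 did not pass. Ckb, the cytosolic creatine kinase, fell by 2.37 ± 0.18 (adjusted p = 5.04e-06; -2.12 and -2.62), with its row detected on 3 GF and 3 CONV arrays, while Slc6a8, the creatine transporter, rose by 0.47 ± 0.14 (adjusted p = 0.0289), a call lost without CONV replicate 6 (adjusted p = 0.0587). Slc40a1, the iron exporter ferroportin, rose by 0.62 ± 0.19 (adjusted p = 0.0344). That call was lost without GF replicate 1 or 2 or CONV replicate 1, 2, 4, 5 or 6 (adjusted p = 0.0507 to 0.0708). Nt5e, the ectonucleotidase CD73 that makes adenosine, was at -1.77 in batch 1 and 0.30 in batch 2, effects that differed (adjusted p = 0.0159). Over 12 arrays it did not pass (-0.74 ± 0.36, adjusted p = 0.172) unless GF replicate 5 was left out (-1.04, adjusted p = 0.0190).

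Among carbonic anhydrases, the family of Car9, 6 of 15 genes were tested in addition to it, and 1 rose, 2 fell and 3 did not pass, where 10.8% of all genes were called higher and 11.8% lower in GF. Car4, a membrane-bound form of the surface epithelium, rose by 0.47 ± 0.08 (adjusted p = 0.00194; 0.61 and 0.34), opposite to Car9. The cytosolic Car13 fell by 0.45 ± 0.11 (adjusted p = 0.0120; -0.66 and -0.24). Car11, a family member without enzyme activity, was lower in GF (adjusted p = 0.0268) but was detected on 3 GF and 6 CONV arrays. It was at -0.16 with overlap in batch 1 and at -1.35 in batch 2, effects that differed (adjusted p = 0.0256). Its call was lost without GF replicate 4 (adjusted p = 0.0554), without both replicate 5 arrays (adjusted p = 0.0596) and with array weights (-0.22, adjusted p = 0.196). Car12, the other membrane form known as a HIF target, did not pass (-0.37 ± 0.26, adjusted p = 0.345), with GF replicate 5 far below the other arrays, and was at -0.078 without that array (adjusted p = 0.537). Car2, the abundant cytosolic form, was at -0.75 in batch 1 and 0.13 in batch 2, effects that differed (adjusted p = 0.0360). It did not pass over 12 arrays (-0.31 ± 0.17), and its row was detected on 4 GF and 3 CONV arrays.

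Relatives and partners of the members numbered 21, of which 11 were tested, 0 rose, 3 fell and 8 did not pass by limma, near the 22.7% of all genes called. At an unadjusted p below 0.05, 2 were higher in GF. Nrp1, neuropilin 1, a co-receptor of VEGF, fell by 0.87 ± 0.13 (adjusted p = 0.000543; -0.70 and -1.04), with GF below CONV on every array of each batch. Vegfd, a growth factor of lymph vessels, was lower in GF (adjusted p = 0.0308), but was detected on 3 GF and 3 CONV arrays. It was at -0.18 with overlap in batch 1, which did not pass (limma adjusted p = 0.243), and at -0.47 in batch 2. Its batch 2 means of 4.42 in GF and 4.88 in CONV were near those of Adm (5.09 and 4.83), which are background. The call of Vegfd was lost without GF replicate 1, 5 or 6 or CONV replicate 1, 3, 4 or 6 (adjusted p = 0.0510 to 0.0723). Bnip1 fell by 0.24 ± 0.07 (adjusted p = 0.0240), a call lost without any of replicates 1 to 3 of either group (adjusted p = 0.0501 to 0.0624). Ramp1, which pairs with the adrenomedullin receptor family, was at 1.79 in batch 1 and -0.22 in batch 2, effects that differed (adjusted p = 1.50e-05). Over 12 arrays it did not pass (0.79 ± 0.29, adjusted p = 0.0740) but was called without GF replicate 5 or CONV replicate 6 (adjusted p = 0.0420 and 0.0472). P4hb, the beta subunit of the prolyl 4-hydroxylase to which P4ha1 gives the alpha subunit, was at -0.09 ± 0.08.

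**Figure D4:**
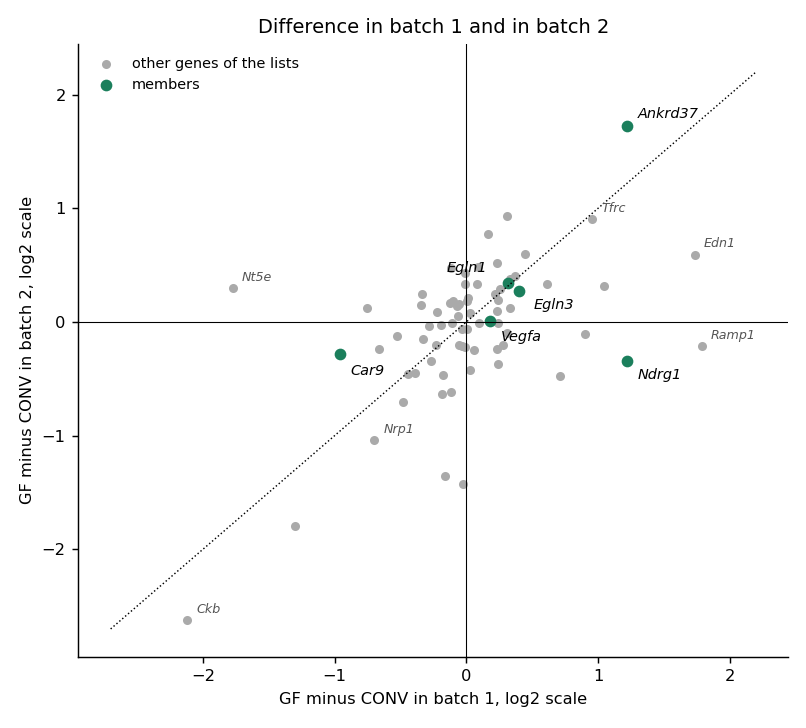
GF minus CONV difference in batch 1 (horizontal axis) and in batch 2 (vertical axis), log2 scale, for the members and the other tested genes of the lists, with equal differences on the dotted line. Of the 74 genes drawn (Adm is left out) 48 have the same sign in both batches, among them 5 of 6 members, where 61.0% of all genes tested do; Ndrg1, Ramp1 and Nt5e lie in the quadrants of opposite sign.

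Colonocyte markers were present. All 7 in the table were detected on every array of at least 1 batch, and Vil1, Krt19, Lgals4, Cdx1 and Aqp8 on all 12 arrays. Of them Aqp8, a water channel, fell by 0.83 ± 0.27 (adjusted p = 0.0422). Among B and plasma cell markers Cd79b and Jchain were not detected on any array. Of 4 fibroblast and smooth muscle markers Col3a1 and Lum were not detected on any array, Col1a2 was detected on 1 GF and 3 CONV arrays and Des on 1 GF and 2 CONV arrays, all in batch 2. Endothelial markers had a summed level of 192 to 277 in GF and 224 to 294 in CONV, with 0 of 4 tested genes called by limma and 0 at an unadjusted p below 0.05. Some other marker sums did not overlap between groups, as was so for Ankrd37. Small intestinal enterocyte markers summed to 3559 to 3836 in GF against 582 to 2063 in CONV in batch 1, and to 2003 to 2708 in GF against 332 to 420 in CONV in batch 2. Of these markers 5 of 5 tested genes rose, where 10.8% of all genes did. Enteroendocrine markers summed to 7514 to 7721 in GF against 3558 to 4279 in CONV in batch 1, and to 8697 to 13273 in GF against 6129 to 8009 in CONV in batch 2. Among the enteroendocrine genes 2 of 5 rose, against the same 10.8%. Of 4 tested stem and transit amplifying genes Lgr5 rose by 0.77 ± 0.13 (adjusted p = 0.00157), Top2a fell by 0.65 ± 0.11 (adjusted p = 0.00142), and Olfm4 and Axin2 did not pass. Macrophage and myeloid markers summed to 575 to 593 in GF against 712 to 825 in CONV in batch 1, and to 694 to 1068 in GF against 812 to 1093 in CONV in batch 2. Of the 3 tested, Cd14 fell (-1.01 in batch 1 and -0.20 in batch 2, adjusted p = 0.0256). Cd68 was higher in GF at 0.87 but did not pass (limma adjusted p = 0.0518), with 1.74 in batch 1 and -0.0021 in batch 2. Lyz2 was at 0.011 over 12 arrays and did not pass. Csf1r and Itgam were not detected on any array. The part of these cells in the changes of Ankrd37 and Car9 was not tested.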

How the data were processed

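RNA of 12 colonocyte samples was measured on Illumina bead arrays. Per the submitters' processing notes limma was used, with no version given. The deposited table holds natural log values: taken as powers of e, 95.1% to 97.6% of an array's values had no more than 7 significant digits, and as powers of 2, 0.7% to 1.1%. Detection p-values were deposited beside them. Array medians were 76.6 to 77.9 in batch 1 and 201.1 to 202.1 in batch 2, and the 5th to 75th percentiles differed between arrays by 1.63% to 7.53% in batch 1 but by 0.34% to 0.95% in batch 2. At the 90th and 95th percentiles the batches were more alike, with 3.19% and 2.78% in batch 1 and 2.24% and 2.12% in batch 2. The 99th percentile differed by 6.06% in batch 1 and 1.99% in batch 2. An unstated normalization may have been applied to batch 2 before deposit, which was not tested, so its intensities and inferred background may not be raw. The series matrix held the same values for the 15132 rows named alike. Intensities were corrected with normexp, with the negative controls' level inferred from the detection p (offset 16), and quantile normalized on the log2 scale (R 4.3.3, limma 3.58.1). Only rows on detection steps of 1 in 1603 (batch 1) or 1872 (batch 2) informed the controls. Rows detected (p below 0.05) on at least 3 arrays were tested, the brightest for each gene. Between 6089 and 7402 rows were detected per array. Row names were matched to RefSeq symbols (11698 current, 2521 older, 935 not settled). The fit was tested on simulated data with equal effects and equal spread in both batches. Such data cannot show how the fit handles batches that differ. Members and lists were chosen with earlier results of these data known. The genes named are all members, up to 4 called and up to 2 bright uncalled genes of each list, and the 5 most like Ankrd37 and Car9. Alternatives covered background correction, normalization, filter, batch term, array weights, replicate block and single arrays. The number of arrays limits the precision.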

Additional observations from a re-analysis of the deposited data

Results flagged for a closer look

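Single arrays stood apart from the other 5 of their group in 9 of 94 groups of values (gap to the nearest array over the whole range, above Dixon's 95% critical value, with batch means removed). Chance gives about 1 in 20 where all arrays vary alike, which they did not: the median SD over genes was 0.071 in GF and 0.086 in CONV in batch 1, and 0.185 in GF and 0.171 in CONV in batch 2. Prr15 and Ufc1 were picked for following Ankrd37, so their arrays are no separate observation. Of the 9, 8 were replicate 5 of batch 2. The ratio was 0.727 for Ankrd37 in CONV replicate 5, the lowest array, at -1.30 against -0.73 to -0.51 for the others. It was 0.742 for Prr15, 0.677 for Ufc1, 0.645 for P4hb and 0.642 for Car12, all in CONV replicate 5. In GF replicate 5 it was 0.861 for Slc40a1, 0.654 for Slc6a8 and 0.712 for Car12, and in GF replicate 6 it was 0.648 for Bnip1. With both replicate 5 arrays left out, an alternative chosen after seeing the data, Ankrd37 was at 1.30 (adjusted p = 4.60e-06) and Car9 at -0.66 (adjusted p = 0.00582).

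Effects that differed between the batches by limma's interaction test, as batch 2 minus batch 1 on the log2 scale, were 0.68 for Car9 and -1.57 for Ndrg1 among the members. Among the other genes named they were 0.49 for Ldha, -1.001 for Errfi1, 2.07 for Nt5e, -1.19 for Car11, 0.88 for Car2, -2.00 for Ramp1, 0.87 for Plk1, 0.71 for Oip5, 0.84 for Mtch2 and 0.69 for Aurka. Plk1, Oip5, Mtch2 and Aurka were picked for following Car9, so their batch differences are no separate observation. The cause of the batch differences was not tested.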

How the results depend on the processing

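Ankrd37 kept its direction and call under all 11 alternatives and with each of 12 arrays left out (1.35 to 1.52), and Car9 did so except where batch 1 was reduced to 1 mean array per group (-0.45, adjusted p = 0.150; -0.71 to -0.56 without single arrays). That alternative, which has fewer samples, called 254 genes in place of 1839 and 1 member in place of 2. No batch term gave 237 genes. Array weights gave 4286 of 8107 genes and 6 of 7 members. Same-numbered GF and CONV arrays did not deviate together (r -0.243 to 0.0403 across genes). Deviations from means of 3 arrays cannot show whether such samples shared more than a number. The replicate block in place of batch gave 1118 genes, kept the calls of Ankrd37 (adjusted p = 0.00222) and Car9 (adjusted p = 0.0291) and took 8 of 29 calls of other named genes. Without single arrays 1327 to 2074 genes and 2 or 3 members were called. Of the other named genes 24 lost their call with no batch term and 20 with batch 1 averaged. Signs turned for Wsb1 (-0.020) and P4hb (0.022) with array weights, for Ldha with batch 1 averaged (0.024), for Wsb1 without single arrays (-0.014 to 0.081), and for the batch difference of Egln1, 0.024, with no background correction (-0.038), with normexp without controls (-0.039) and with the 75th percentile (-0.023). None of these was called, and the cause was not tested. Adm was not tested under the stricter detection filter. Dim signal limits Adm and the batch 2 values of Egln1 and Vegfd, and the spread of batch 2 limits what could be called there.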
